A study of Mus musculus with 8 samples.

Results

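Adipokines are proteins that fat tissue releases into the blood or into its surroundings. The genes described here are 10 such genes and close partners: Lep, Adipoq, Retn, Cfd, Rbp4, Nampt, Sfrp5, Bmp3, Cav1 and Fabp4. They were picked by symbol from 49452 genes listed for brown adipose tissue (BAT), by a rule that names genes and sets no measured value, though with earlier results of these data known, and all 10 were found. RNA-Seq was done on BAT of C57BL/6 mice in 4 groups with 2 libraries each, to find transcripts that follow BAT activity. The cold experiment set mice at 22 °C (replicates 4 and 7) against mice kept at 4 °C for 24 h (replicates 2 and 11), all male and 10 to 12 weeks old by the study's methods. The methods give 20 h at 4 °C followed by 4 h of fasting, and name no temperature for the fast. It is not clear if mice at 22 °C also fasted. The diet experiment set mice on a normal chow diet (NCD, replicates 6 and 8) against mice on a high-fat diet (HFD, replicates 2 and 6), male and 32 weeks old after 28 weeks on the diet. The study itself describes the control food as a diet matched in micronutrients. The labels name no transgene or gene deletion.

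BAT burns fatty acids to make heat through uncoupling protein 1 (Ucp1), whereas white fat stores them. Leptin, the product of Lep, tells the brain how much fat is stored and is made mainly by white adipocytes. Its level in fat is known to follow fat cell size and feeding, and cold or sympathetic stimulation is known to lower it. Adiponectin (Adipoq) and adipsin (Cfd) are among the most abundant proteins that adipocytes secrete, and neither is particular to white or brown fat.

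Values are FPKM, fragments per kilobase of transcript, scaled to the mapped fragments of the library, so levels can be compared between genes. By the size of the smallest steps in the table, the libraries held about 89700000 to 124000000 fragments. Ucp1, the defining marker of brown adipocytes, lay between 699 and 6462 FPKM in the 8 libraries. Some features set libraries apart across the groups. The satellite-repeat gene Gm10800 exceeded 100 FPKM in HFD replicate 2, NCD replicate 8, 4 °C replicate 11 and 22 °C replicate 4, 1 library a group (called satellite-high here), and was between 0.0998 and 4.13 FPKM in the others (satellite-low). Genes of the X chromosome were all listed at 0 in both 22 °C libraries and in NCD replicate 6, while 779 to 1175 of them were above 0 elsewhere, and the mitochondrial share of all FPKM ran from 0% to 62.3%. Skeletal muscle markers differed most between groups: their summed FPKM was 149 to 619 at 22 °C and 2117 to 4768 at 4 °C (11 of 11 markers higher in both cold libraries), and 633 to 1647 under NCD and 40.4 to 217 under HFD (10 of 11 lower in both HFD libraries). Macrophage markers summed to 39.8 to 110 FPKM under NCD and 194 to 246 under HFD, with 8 of 8 higher in both HFD libraries. Fibroblast and preadipocyte markers summed to 95.96 to 103 FPKM under NCD and 250.99 to 273 FPKM under HFD, with 6 of 7 higher in both HFD libraries. Endothelial markers summed to 107 to 127 FPKM under NCD and 176 to 200 FPKM under HFD. Of the 7 endothelial markers, 4 were higher and 0 lower in both HFD libraries. In both cold libraries 4 were higher and 1 lower. Of all genes tested, 39.9% were higher and 5.8% lower in both HFD libraries, and 37.9% and 20.6% in both cold libraries. Of 6 general adipocyte markers, 5 were higher and 0 lower in both cold libraries, and 1 and 0 in both HFD libraries. Of 9 brown adipocyte markers, 6 were higher and 2 lower in both cold libraries. In both HFD libraries 2 were higher and 2 lower. In bulk tissue, fewer cells of a type and less RNA per cell cannot be told apart. What part adipocytes, muscle, macrophages, fibroblasts, endothelial cells or the satellite split had in the values below was not tested.

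Lep was the adipokine gene that varied most, by 477-fold between its lowest and its highest library. Mice on HFD had far more Lep in BAT than mice on NCD. Lep was 1 of only 12 genes past the threshold for diet among the 17535 autosomal genes tested. Mice at 4 °C had less Lep than mice at 22 °C in both libraries, but this difference narrowly missed the threshold. Lep lies on chromosome 6 (chr6:29060220-29073877, plus strand, GRCm38; ENSMUSG00000059201). Because Lep passed the test, the 250 bases before its RefSeq start are shown (chr6:29059971-29060220, plus strand, RefSeq on GRCm38.p6). Capitals mark matches to the motifs searched for on either strand.

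Lep promoter: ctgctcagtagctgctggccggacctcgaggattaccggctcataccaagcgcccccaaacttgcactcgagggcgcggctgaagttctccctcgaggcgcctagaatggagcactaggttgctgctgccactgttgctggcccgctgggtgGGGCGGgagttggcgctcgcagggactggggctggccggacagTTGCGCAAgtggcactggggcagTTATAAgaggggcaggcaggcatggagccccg

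The first run of capitals is GGGCGG, the GC box to which Sp1 binds, 98 bases before the start. It was present in 35.7% of the 32851 windows of 300 bases in the same table. The second run holds TTGCGC on both strands, overlapping, at 55 and 53 bases before the start, and 6.49% of windows hold that motif. It is the core of the element bound by C/EBP factors, which drive adipocyte differentiation. The third run holds TATAA on both strands, overlapping, at 32 and 31 bases before the start, and 24.9% of windows hold it. TTGCGC and TATAA were added to the search after the sequence had been read. The search also covered CCAAT (in 37.4% of windows), TATAAA (13.6%), AGGTCA (16.3%) and CACGTG (7.15%), with no match in the Lep window. These matches describe letters only.

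In the cold experiment, Lep stood at 7.39 and 3.72 FPKM in 22 °C replicates 4 and 7, and at 0.769 and 0.175 FPKM in 4 °C replicates 2 and 11. The groups did not overlap, and the lowest of these values still rests on about 57.2 fragments. Mean levels were 5.55 ± 2.59 FPKM at 22 °C and 0.472 ± 0.420 FPKM at 4 °C (SD, n = 2 each), a ratio of 11.8. The log2 fold change of FPKM + 1 was −2.13 (SE 0.35), with an adjusted p of 0.0526 in limma (Benjamini-Hochberg over 17470 genes). It lay lower at 4 °C within both library types, by −2.84 between the satellite-high and −1.42 between the satellite-low libraries. Lep passed the threshold in 10 of 17 alternative settings, where its adjusted p ran from 2.51e-08 to 0.181 over all 17, and its log2 fold change stayed between −3.79 and −1.71.

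In the diet experiment, Lep stood at 2.93 and 0.307 FPKM in NCD replicates 6 and 8, and at 61.7 and 83.5 FPKM in HFD replicates 2 and 6. Both HFD libraries were thus far above both NCD libraries, and the NCD libraries themselves differed widely. The means were 1.62 ± 1.86 FPKM under NCD and 72.6 ± 15.4 FPKM under HFD (SD, n = 2 each), a ratio of 44.8. On the scale of log2(FPKM + 1), Lep rose under HFD by 5.005 (SE 0.55, adjusted p 0.0425, limma over 17535 genes). Between libraries of 1 type, the log2 difference was 5.58 (satellite-high) and 4.43 (satellite-low). Its call held in 9 of 17 alternatives, with adjusted p from 2.04e-21 to 0.527 (in 6 of the 8 others no gene of the whole table passed), while the log2 fold change never left the range from 4.21 to 6.22. The smallest of these p-values came from fits with 3 libraries, in which the spread of Lep comes from the 2 libraries of the other group, moderated toward other genes, and the lone library is assumed to vary alike.

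**Figure D1:**
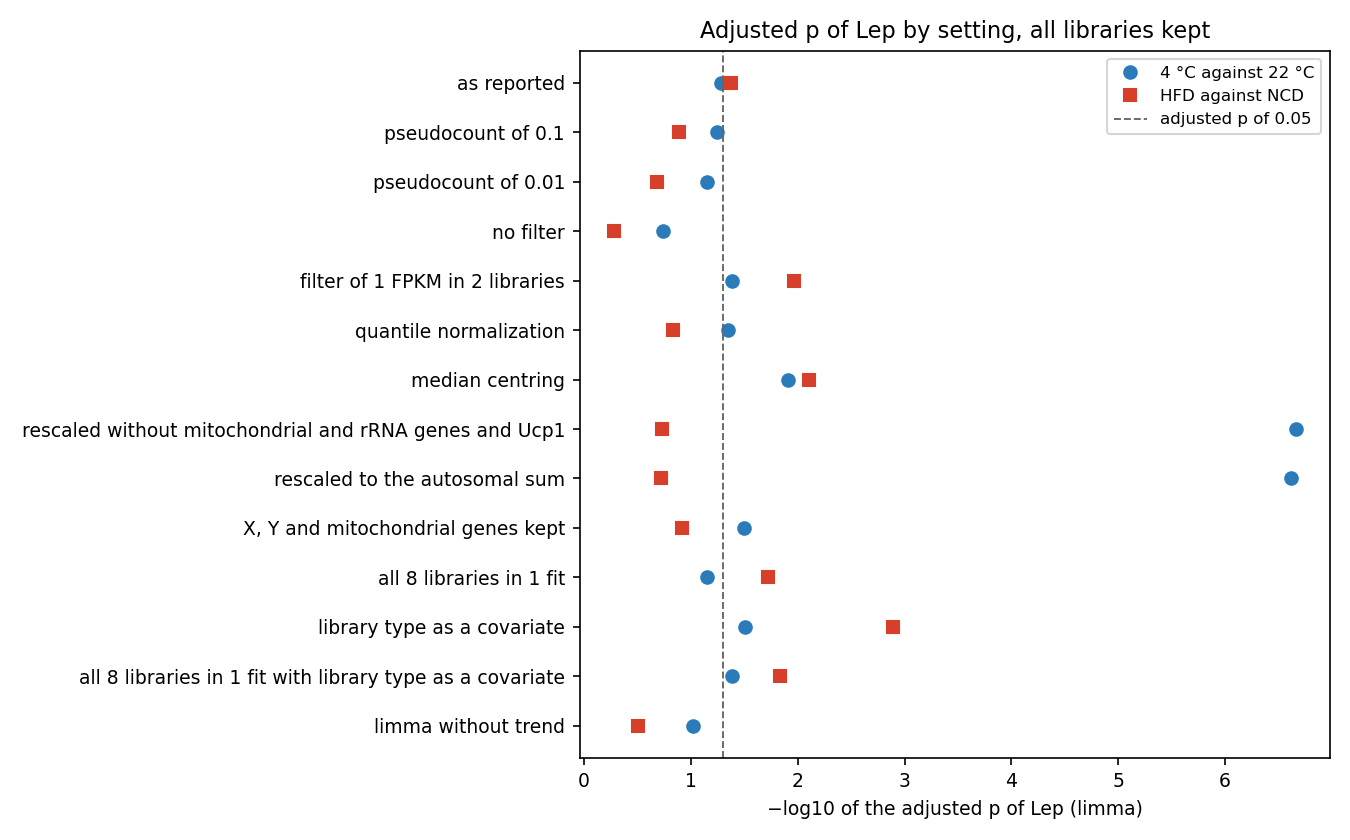
Adjusted p of Lep (limma, plotted as −log10) under the reported and 13 alternative settings that keep all libraries, for 4 °C against 22 °C (circles) and HFD against NCD (squares), with a dashed line at an adjusted p of 0.05. In both comparisons the points fall on either side of the line.

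Across the 4 groups the Lep means ran in the order 4 °C, NCD, 22 °C and HFD. The neighbours 4 °C and NCD overlapped, whereas NCD and 22 °C, and 22 °C and HFD, did not. Some genes of the list of white adipocyte markers were also high under HFD. The list, which does not hold Lep, summed to 8.15 to 12.01 FPKM under NCD and 121 to 144 FPKM under HFD. At 22 °C it summed to 32.01 to 53.001 FPKM and at 4 °C to 38.2 to 54.4 FPKM, ranges that overlap. Of its 5 tested genes, 3 passed under HFD: Nnat (5.27 and 3.33 FPKM under NCD, 88.7 and 70.6 under HFD), Mest (0.527 and 0.568, against 8.62 and 7.36) and Npr3 (4.32 and 2.58, against 44.4 and 41.9). The remaining tested genes overlapped: Agt (0.112 and 0.305 FPKM under NCD, 0.097 and 0.266 under HFD) and Hoxc8 (1.78 and 1.27, against 1.93 and 0.919). In the cold, 3 of the 5 were higher and 2 lower in both 4 °C libraries, where 37.9% and 20.6% of all genes were. Npr3, a receptor that clears natriuretic peptides, was higher and passed there, and Nnat was lower without passing, at 42.1 and 24.6 FPKM at 22 °C and 8.49 and 7.92 FPKM at 4 °C. The defining homeobox genes of white depots in that list, Hoxc9 and Hoxc10, were at most 0.0621 and 0.0565 FPKM in any library, and Hoxc8 was at 0.797 to 1.93 FPKM.

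**Figure D2:**
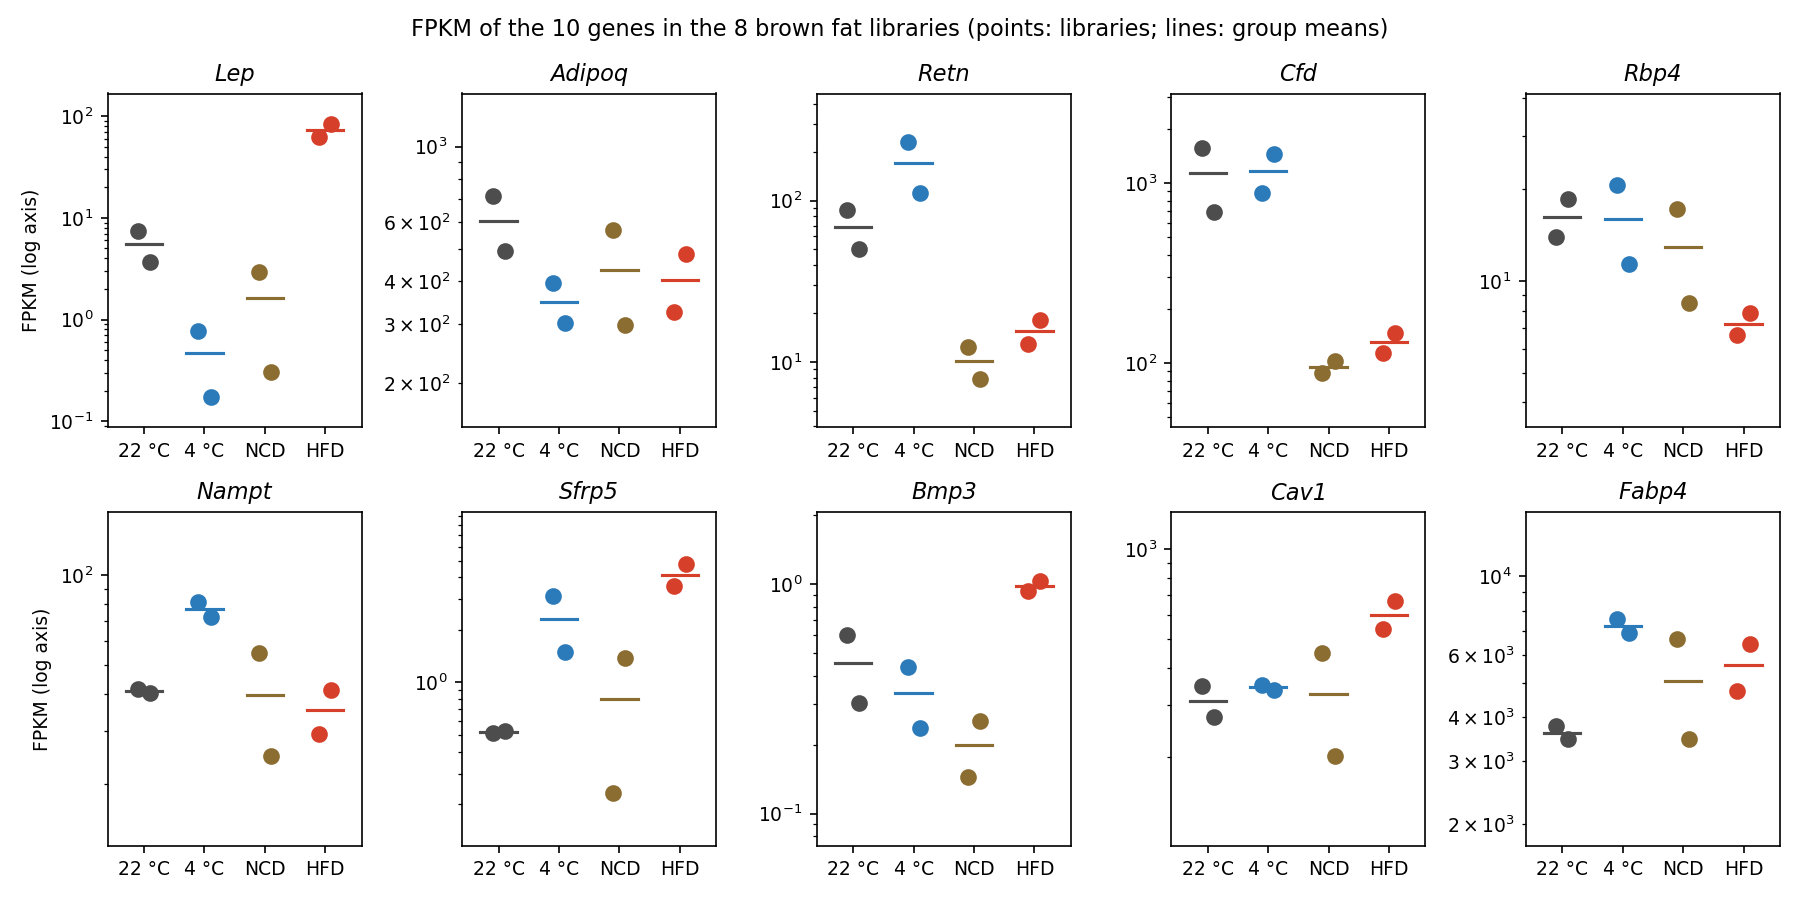
FPKM on a log axis for the 10 genes in the 8 BAT libraries, with points for libraries and lines for group means (n = 2 each). Lep spans 0.175 to 83.5 FPKM, Retn and Cfd are lower in the 4 NCD and HFD libraries than in the 4 others, and Fabp4 lies between 3469 and 7595 FPKM throughout.

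Among all 10 genes, none passed the threshold (adjusted p under 0.05 and at least 2-fold) for 4 °C against 22 °C, where 1.44% of 17470 tested genes did. All 10 passed the filter on low values in both comparisons. At an unadjusted p under 0.05 there were 4 (Lep, Retn, Nampt and Sfrp5), against 24.5% of all genes. Both cold libraries were higher than both 22 °C libraries for 4 genes (Retn, Nampt, Sfrp5 and Fabp4), where 37.9% of all genes did the same, and lower for 2 (Lep and Adipoq), where 20.6% did. For HFD against NCD, 1 of 10 passed, which was Lep, against 0.0684% of 17535 genes (0.0513% higher and 0.0171% lower). At an unadjusted p under 0.05 there were 3 (Lep, Sfrp5 and Bmp3), against 14.4%. Both HFD libraries were higher for 6 genes (Lep, Retn, Cfd, Sfrp5, Bmp3 and Cav1), against 39.9% of all genes, and lower for Rbp4, against 5.8%. The median log2 fold change of the 10 genes was 0.14 in the cold and 0.51 under HFD, next to 0.07 and 0.18 over all genes tested. With 2 libraries against 2, an exact permutation test cannot give a two-sided p under 0.333, so non-overlap alone reaches no threshold. The labels number the replicates without saying that each is a separate mouse, so p-values measure only the spread between these libraries, which may be technical.

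**Figure D3:**
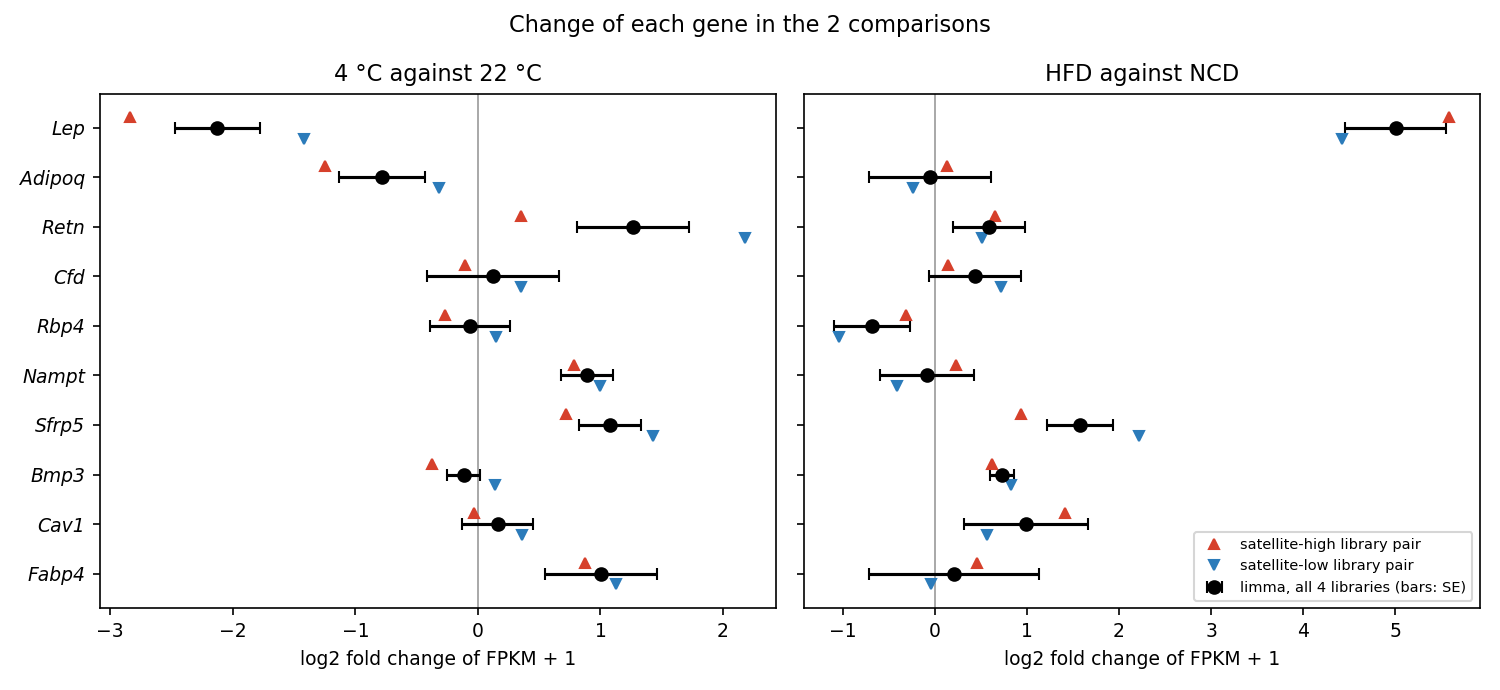
Log2 fold change of FPKM + 1 for the 10 genes at 4 °C against 22 °C and under HFD against NCD, with limma estimates (circles, bars for SE, 4 libraries each) and the difference within the satellite-high pair (upward triangles) and the satellite-low pair (downward triangles). Lep lies at −2.13 and 5.005, and for Cfd, Rbp4, Bmp3 and Cav1 in the cold and Adipoq, Nampt and Fabp4 under HFD the triangles lie on opposite sides of 0.

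Adipoq, whose product raises insulin sensitivity (chr16:23146536-23158028), stood at 717 and 491 FPKM in 22 °C replicates 4 and 7 and at 395 and 302 FPKM in 4 °C replicates 2 and 11. Both cold libraries were thus lower, with a log2 difference of −0.78 (SE 0.35, adjusted p 0.243, limma). This difference was −0.51 without 22 °C replicate 4, −1.05 without 22 °C replicate 7 and −1.34 with quantile normalization. Under NCD Adipoq stood at 569 and 297 FPKM and under HFD at 326 and 483 FPKM. The HFD values fell inside the NCD range, and the log2 fold change was −0.05 (SE 0.66, adjusted p 0.98, limma). No neighbouring groups in the order of Adipoq means were free of overlap.

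Retn encodes resistin, a hormone that adipocytes of mice secrete and that impairs insulin action (chr8:3655770-3660110). It was at 87.8 and 50.2 FPKM in 22 °C replicates 4 and 7, and at 231 and 112 FPKM in 4 °C replicates 2 and 11. Both cold libraries were higher, but their log2 difference of 1.27 did not pass (SE 0.46, adjusted p 0.177, limma). It was 0.35 between the satellite-high and 2.18 between the satellite-low libraries. With quantile normalization it was 0.73, with median centring 1.01, and under the 2 rescalings 0.82 and 0.83. In NCD replicates 6 and 8 Retn was at 12.4 and 7.89 FPKM, and in HFD replicates 2 and 6 at 13.0 and 18.1 FPKM. Here too the groups were apart, by a log2 difference of 0.58 (SE 0.39, adjusted p 0.548, limma). Of the 10 genes, Retn alone had no overlap between neighbours, in the order NCD, HFD, 22 °C and 4 °C.

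Rbp4, the carrier of retinol in blood (chr19:38116620-38125321, minus strand), was at 14.0 and 18.5 FPKM at 22 °C and at 20.6 and 11.4 FPKM at 4 °C, which overlap. It was at 17.3 and 8.51 FPKM under NCD and at 6.64 and 7.88 FPKM under HFD. Both HFD libraries were lower, by a log2 difference of −0.68 (SE 0.41, adjusted p 0.506, limma). Nampt, also called visfatin, makes the NAD precursor nicotinamide mononucleotide inside cells and is secreted as well (chr12:32820335-32853369). It was at 41.7 and 40.3 FPKM at 22 °C and at 81.3 and 72.4 FPKM at 4 °C. The cold values were higher with little spread in either group, at a log2 difference of 0.89 (SE 0.21, adjusted p 0.0885, limma). This difference depended on scaling: it was 0.34 with quantile normalization, and 0.45 and 0.46 under the 2 rescalings. Under NCD Nampt was at 54.7 and 24.8 FPKM and under HFD at 29.3 and 41.0 FPKM, with the HFD libraries inside the NCD range. Its gene overlaps the lincRNA gene Gdap10 on the same strand, which had 1.55 to 6.84 FPKM, so reads shared by both cannot be assigned with certainty.

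Cfd encodes adipsin, the protease that starts the alternative complement pathway by cutting factor B (chr10:79890853-79892656). It was at 1571 and 695 FPKM at 22 °C and at 886 and 1459 FPKM at 4 °C, which overlap. It was at 88.3 and 103 FPKM under NCD and at 114 and 146 FPKM under HFD. The HFD libraries were both higher, with a log2 difference of 0.43 (SE 0.50, adjusted p 0.736, limma). With median centring the difference was 0.08.

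Sfrp5 and Bmp3 are secreted proteins that act locally, Sfrp5 as a decoy that binds Wnt ligands and Bmp3 as a member of the bone morphogenetic protein (BMP) family. Sfrp5 (chr19:42197971-42202252, minus strand) was at 0.513 and 0.526 FPKM in 22 °C replicates 4 and 7 and at 3.11 and 1.497 FPKM in 4 °C replicates 2 and 11. It was at 0.232 and 1.39 FPKM in NCD replicates 6 and 8 and at 3.57 and 4.75 FPKM in HFD replicates 2 and 6. Both cold and both HFD libraries were above their controls, with ratios of means of 4.43 and 5.14. The log2 fold changes were 1.08 (SE 0.25, adjusted p 0.0861) and 1.58 (SE 0.36, adjusted p 0.158) in limma, neither past the threshold. With library type as a covariate both passed, at adjusted p 0.0474 and 0.0173, but Sfrp5 passed in only 3 of 17 alternatives in each comparison, with cold values of adjusted p between 0.0205 and 0.233 and HFD values between 1.98e-05 and 0.534.

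Bmp3 (chr5:98854415-98884396) was the lowest of the 10 genes by median, at 0.602 and 0.302 FPKM at 22 °C and at 0.435 and 0.237 FPKM at 4 °C. These overlap. Under NCD it was at 0.145 and 0.255 FPKM and under HFD at 0.938 and 1.03 FPKM, a ratio of means of 4.93. The HFD libraries were the highest of all 8, and the lowest value of the gene rests on about 111 fragments. The log2 fold change of FPKM + 1 was 0.73 (SE 0.13, adjusted p 0.138, limma), which understates the ratio because 1 is added to low values.

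Cav1 and Fabp4 act mainly inside the adipocyte. Cav1 encodes caveolin-1, the protein that shapes the small pits of the fat cell membrane (chr6:17306335-17341452). It was at 346 and 272 FPKM at 22 °C and at 349 and 338 FPKM at 4 °C, which overlap. It was at 449 and 201 FPKM under NCD and at 537 and 668 FPKM under HFD. Both HFD libraries were higher, by a log2 difference of 0.99 (SE 0.68, adjusted p 0.556, limma). An antisense gene across Cav1, Gm15581, had at most 0.0308 FPKM.

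Fabp4 encodes the fatty acid binding protein of adipocytes, part of which is secreted (chr3:10204088-10208576, minus strand), and was the most abundant of the 10 genes. It was at 3769 and 3472 FPKM at 22 °C and at 7595 and 6918 FPKM at 4 °C. Both cold libraries were higher, with a ratio of means of 2.004 and a log2 difference of 1.003 (SE 0.46, adjusted p 0.249, limma). This difference also depended on scaling. It was 0.69 with quantile normalization, 0.75 with median centring, and 0.55 and 0.56 under the 2 rescalings. Under NCD Fabp4 was at 6638 and 3469 FPKM and under HFD at 4753 and 6451 FPKM, with HFD inside the NCD range.

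The cold and the diet experiment also differed from each other in some of these genes, which was seen after the values were known and is given with no test. The 4 libraries at 22 °C and 4 °C were all above the 4 libraries on NCD and HFD for Retn (lowest 50.2 against highest 18.1 FPKM) and for Cfd (lowest 695 against highest 146 FPKM). The ratios of the means were 9.37 and 10.2. Of 10877 autosomal genes that averaged 1 FPKM or more, 4.05% were apart in this direction and 1.33% in the other. The other 8 member genes overlapped between the experiments. Retnla, a relative of resistin, and Agt, which encodes the precursor of angiotensin, were apart in the same way, with ratios of 3.86 and 27.95. They are examples named after their values were seen. Other genes of the lists followed below were apart in this direction too, among them Klf4 (lowest 7.91 against highest 4.83 FPKM) and Vegfa (83.9 against 72.9 FPKM). The genes of those lists that were apart in either direction were not counted. The mice of the experiments differed in age. By the study's methods the diet mice also had 28 weeks on their diets, and the 4 °C mice a fast of 4 h. Age, feeding and experiment cannot be told apart. In the sample descriptions, NCD replicate 6 carries a code that starts like those of the 4 libraries of the cold experiment. The codes of the other diet libraries start differently. NCD replicate 6 had 12.4 FPKM of Retn and 88.3 FPKM of Cfd. The labels do not say what the codes stand for, and their part was not tested.

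**Figure D4:**
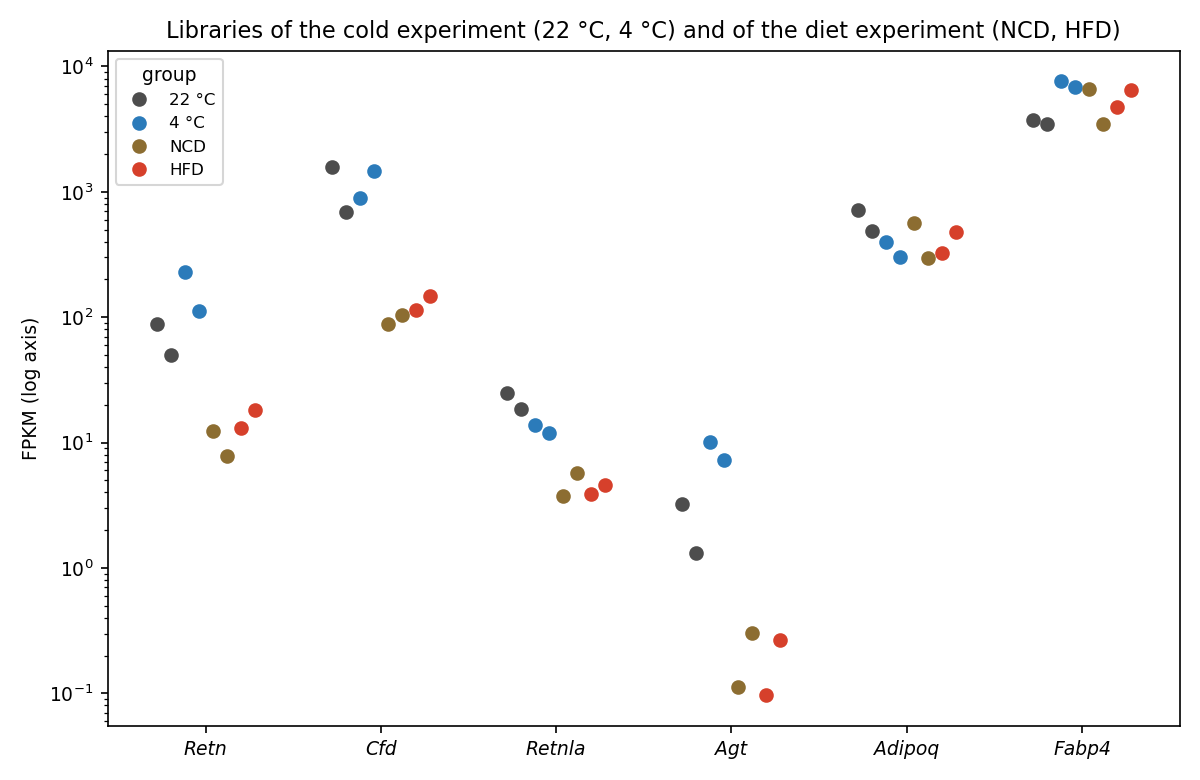
FPKM on a log axis of Retn, Cfd, Retnla, Agt, Adipoq and Fabp4, with 1 point per library coloured by group. For the first 4 genes all 22 °C and 4 °C points lie above all NCD and HFD points, whereas for Adipoq and Fabp4 the experiments overlap.

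The genes that act with these adipokines were followed in 12 lists of 126 genes, 125 of them in the table and 104 tested in each comparison. At 4 °C, 8 of 104 rose and none fell past the threshold, and 40 of the 104 (38.5%) had an unadjusted p under 0.05, against 24.5% of all genes. Of all genes tested 1.22% rose and 0.223% fell. Each of the 8 passed in 8 to 14 of its 15 to 17 alternatives, and without 4 °C replicate 2 none of the 98 then tested passed, and 1 of all 16812 genes. Under HFD 0 of 104 passed in limma, while 33 (31.7%) had an unadjusted p under 0.05, against 14.4% of all genes. With library type as a covariate 21 passed, where 744 of all 17535 genes (4.24%) did. The medians of the 104 genes were 0.18 and 0.26, next to 0.07 and 0.18 over all genes tested.

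**Figure D5:**
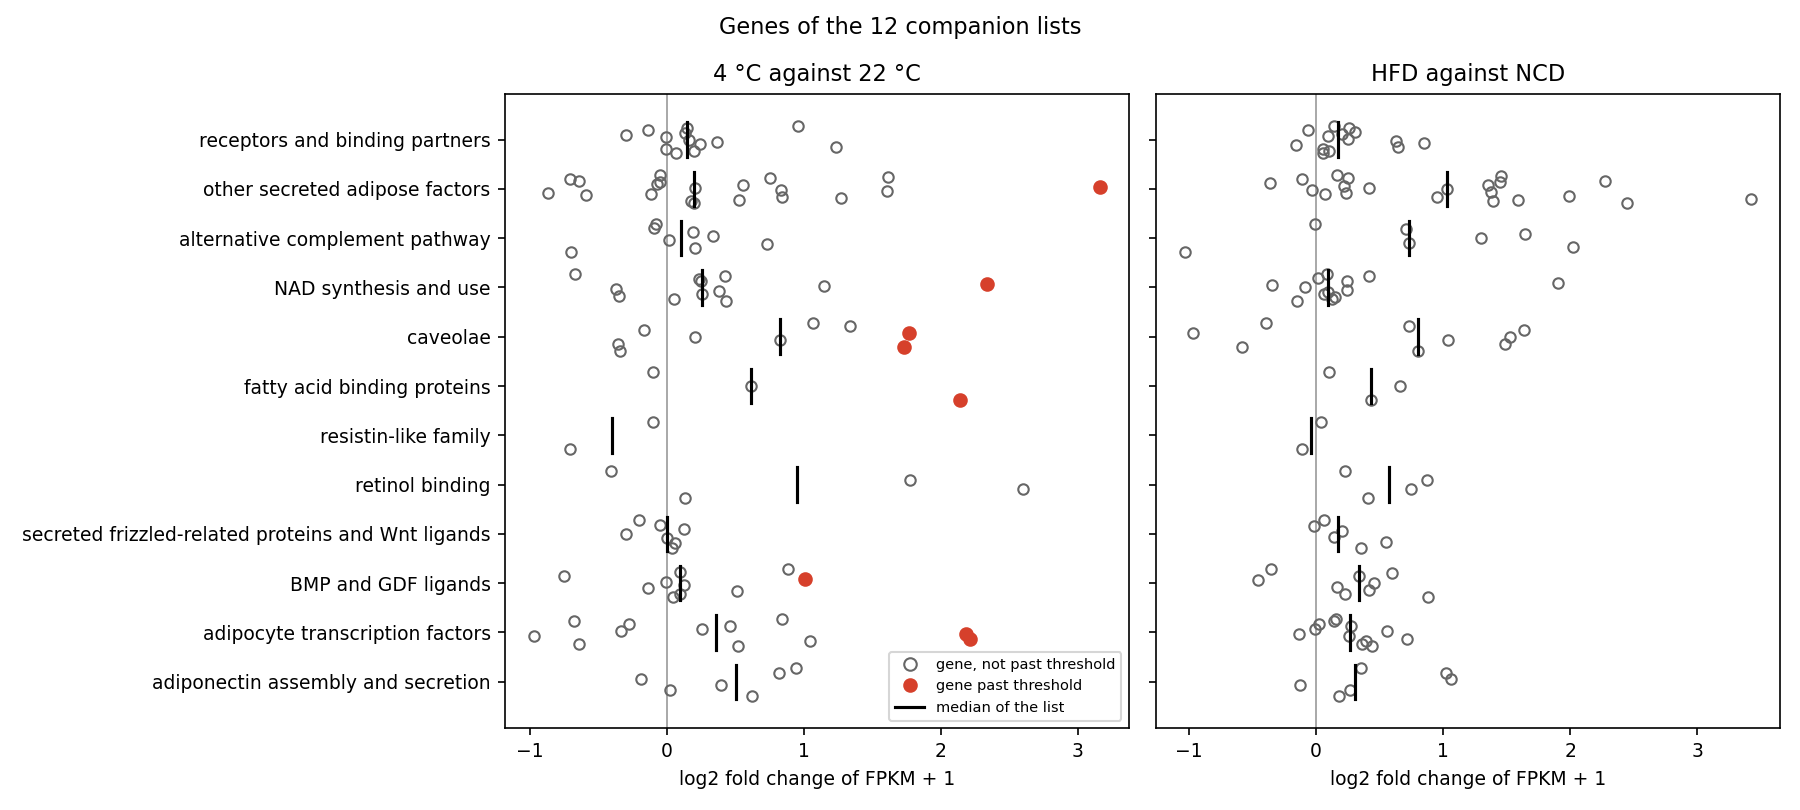
Log2 fold change of FPKM + 1 of the genes in each of the 12 lists at 4 °C against 22 °C and under HFD against NCD, with filled points past the threshold and vertical bars for list medians. All 8 filled points are in the cold comparison, to the right of 0.

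Of the receptors and partners of the adipokines, none of 13 tested in the cold and none of 14 under HFD passed. Lepr, the leptin receptor, was between 0.0828 and 0.211 FPKM in all libraries. Cdh13 encodes T-cadherin, which binds adiponectin, and was at 7.08 and 5.91 FPKM at 22 °C and at 16.2 and 16.9 FPKM at 4 °C (log2 fold change 1.23, SE 0.19, adjusted p 0.0512, limma). Insr, the insulin receptor, was at 15.2 and 19.2 FPKM at 22 °C and at 36.3 and 31.9 FPKM at 4 °C (log2 fold change 0.96, adjusted p 0.0828, limma). Under HFD the largest differences were those of Cap1, a receptor of resistin (0.85, adjusted p 0.423), and Cdh13 (0.65, adjusted p 0.474).

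Among other secreted factors, 1 of 20 passed in the cold. Fgf21, a hormone that BAT releases when it is activated, was at 0.0611 and 0.104 FPKM at 22 °C and at 12.6 and 5.91 FPKM at 4 °C. It rose by a log2 difference of 3.16 (SE 0.34, adjusted p 0.0298, limma). Under HFD none of 21 passed, 12 were higher in both HFD libraries, against 39.9% of all genes, and the list's median was 1.03, against 0.18 over all genes tested. Rarres2, which encodes the adipokine chemerin and is named after its values were seen, was at 43.1 and 16.4 FPKM under NCD and at 122 and 185 FPKM under HFD (2.45, SE 0.59, adjusted p 0.167, limma). Macrophage and fibroblast markers were higher in the same libraries, as given above.

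In the alternative complement pathway none of 8 genes passed in the cold and none of 7 under HFD. Cfb, the substrate of adipsin, was at 3.23 and 1.505 FPKM under NCD and at 11.9 and 12.5 FPKM under HFD (log2 fold change 2.02, SE 0.36, adjusted p 0.138, limma). C5ar1, a receptor for a complement fragment found on myeloid cells, had 1.65 (adjusted p 0.141). In the cold, C3, the central protein of the pathway, had a log2 fold change of −0.71 (adjusted p 0.237).

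Around Nampt, 1 of 12 genes of NAD synthesis and use passed in the cold and none of 13 under HFD. Nnmt methylates nicotinamide and so takes it from the pathway that Nampt feeds. It was at 18.2 and 14.3 FPKM at 22 °C and at 77.2 and 94.2 FPKM at 4 °C, and rose by a log2 difference of 2.33 (SE 0.24, adjusted p 0.0278, limma). Under HFD it was at 26.5 and 28.1 FPKM, above 8.28 and 5.17 FPKM under NCD, without passing (1.90, adjusted p 0.144).

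Around Cav1, 2 of 9 caveolae genes rose in the cold and none passed under HFD. They were Cav3 (log2 fold change 1.73, adjusted p 0.0440) and Cavin4 (1.76, adjusted p 0.0442), which are known as the muscle forms of caveolin and cavin. Cav3 was at 0.396 and 0.0744 FPKM at 22 °C and at 3.75 and 2.46 FPKM at 4 °C, and Cavin4 at 0.641 and 0.431 FPKM and at 5.25 and 3.33 FPKM. Skeletal muscle markers were higher in the same libraries (149 to 619 against 2117 to 4768 FPKM summed), and their part in these values was not tested. The forms known from adipocytes, Cav2 and Cavin1, had log2 fold changes of −0.34 and −0.36 in the cold, with adjusted p of 0.381 and 0.452 (limma). Cavin2, Pacsin2 and Pacsin3 were higher in both cold libraries, by 0.83, 1.34 and 1.06 (adjusted p 0.152, 0.078 and 0.0852, limma). Of the 9 caveolae genes, 5 were higher and 3 lower in both cold libraries, where 37.9% and 20.6% of all genes were. Their median was 0.83, against 0.07 over all genes tested. Under HFD Cav2 and Cavin1 were higher in both libraries, as was Cav1, without passing: Cav2 by 0.80 (adjusted p 0.448) and Cavin1 by 1.49 (adjusted p 0.306). Of the other caveolae genes Cavin2, Cavin3 and Ehd2 were higher there too, by 1.04, 1.53 and 1.64 (adjusted p 0.41, 0.17 and 0.151), while Cavin4, Cav3 and Pacsin3 were lower in both HFD libraries, by −0.97, −0.58 and −0.39 (adjusted p 0.267, 0.171 and 0.621). Cavin4 passed as lower in 2 of 16 alternatives, and muscle markers were lower in the same HFD libraries. Of 7 endothelial markers, 4 were higher and 0 lower in both of these libraries, where 39.9% and 5.8% of all genes were. The part of endothelial cells was not tested.

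Around Fabp4, 1 of 3 tested relatives rose in the cold. Fabp3, the form of heart, muscle and brown fat, was at 131 and 159 FPKM at 22 °C and at 613 and 664 FPKM at 4 °C (log2 fold change 2.14, SE 0.28, adjusted p 0.0442, limma). Under HFD Fabp3 was at 788 and 547 FPKM, next to 497 and 475 FPKM under NCD (0.43, adjusted p 0.801, limma). Summed muscle markers were higher in the cold libraries and lower in the HFD libraries. Their part in the Fabp3 values was not tested. Fabp5 had log2 fold changes of 0.61 and 0.66 (adjusted p 0.285 and 0.708).

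Around Retn and Rbp4 no gene passed. Retnla was at 24.7 and 18.6 FPKM at 22 °C and at 13.7 and 11.9 FPKM at 4 °C (log2 fold change −0.71, adjusted p 0.144, limma), against Retn, which was higher in the same cold libraries. Rbp7, a retinol binding protein inside cells, was at 22.3 and 10.04 FPKM at 22 °C and at 121 and 76.1 FPKM at 4 °C (2.60, SE 0.43, adjusted p 0.0535, limma), and passed in 10 of 17 alternatives. Aldh1a1, which makes retinoic acid, had 1.77 (adjusted p 0.137) in the cold.

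Around Sfrp5, none of 7 Wnt ligands and frizzled-related proteins passed in the cold and none of 6 under HFD. Wnt5a, a ligand that Sfrp5 can bind, was between 0.880 and 2.18 FPKM in all libraries and Wnt11 between 0.835 and 2.51 FPKM. Around Bmp3, 1 of 10 BMP and GDF ligands passed in the cold and none of 9 under HFD. Bmp8b, made by brown fat and known to raise its heat output, was at 0.0826 and 0.0528 FPKM at 22 °C and at 1.05 and 1.23 FPKM at 4 °C. It rose by a log2 fold change of FPKM + 1 of 1.004 (SE 0.09, adjusted p 0.0215, limma), at the limit of 2-fold. Gdf5, named after its values were seen, was lower in the cold, at 0.931 and 0.7603 FPKM at 22 °C and 0.113 and 0.0792 FPKM at 4 °C. Its log2 difference of −0.75 (SE 0.08, adjusted p 0.0339, limma) missed only the 2-fold limit, and it passed as lower with a pseudocount of 0.1 or 0.01 and with median centring.

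Of 12 transcription factors of adipocytes, 2 rose in the cold. Cebpd, an early factor of adipocyte differentiation, was at 0.855 and 0.675 FPKM at 22 °C and at 9.80 and 5.19 FPKM at 4 °C (log2 fold change 2.21, adjusted p 0.0442, limma). Klf15 was at 12.2 and 8.94 FPKM at 22 °C and at 53.8 and 48.2 FPKM at 4 °C (2.18, adjusted p 0.0294, limma). None passed under HFD, where Cebpd had 0.71 (adjusted p 0.304) and Klf15 −0.13 (adjusted p 0.92). Of 6 genes that fold and export adiponectin, none passed in either comparison. Golph3 and Hspa5 had log2 fold changes of 0.94 and 0.82 in the cold (adjusted p 0.0893 and 0.121), in the same libraries in which Adipoq was lower, and Pdia4 and Hspa5 had 1.06 and 1.02 under HFD (adjusted p 0.392 and 0.442).

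The genes whose levels were most like those of Lep were found by Pearson's r of log2(FPKM + 1) over the 8 libraries, among 10876 autosomal genes that averaged 1 FPKM or more. The r is taken across 8 libraries in 4 groups, in which the HFD libraries hold the highest Lep values, and is given as a description. The closest were Apol6 (r = 0.989), Sp110 (0.986), Pdgfa (0.985), Ahnak (0.983) and Gm43198 (0.980). Apol6 was between 9.40 and 20.1 FPKM in the 6 libraries outside HFD and at 44.4 and 56.6 FPKM under HFD. Among the adipokine genes Cav1 came nearest, at rank 697 (r = 0.81), followed by Sfrp5 at rank 2872 (0.50) and Adipoq at rank 5217 (0.25). Fabp4 had an r of −0.02, Retn and Cfd of −0.38, Nampt of −0.40 and Rbp4 of −0.55, and Bmp3 was under the limit of 1 FPKM.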

How the data were processed

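BAT RNA of 8 libraries was depleted of ribosomal RNA and sequenced from directional libraries as paired ends of 100 bases. The authors mapped reads to GRCm38 with TopHat2 2.0.10 and deposited FPKM from Cufflinks on Ensembl 87 genes (version 2.2.1 in the submitters' processing notes), 1 value per gene and library. The authors' DESeq2 counts were not used here. Whether counting used strand is not given in the sources used here. Groups and replicates came from the labels.

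The test was limma (version 3.58.1, under R 4.3.3; lmFit, then eBayes with trend) on the log2 of FPKM + 1, each comparison in its own 4 libraries with no covariate. Autosomal genes with at least 0.1 FPKM in 2 of the 4 libraries were tested, two-sided, with Benjamini-Hochberg adjustment over all of them. The threshold was an adjusted p under 0.05 and at least 2-fold on that scale. Genes of the X, Y and mitochondrial chromosomes were left out because 3 libraries list all X and Y genes and all but at most 1 mitochondrial gene at 0. Because 1 is added, fold changes of low genes are understated. The test was checked on simulated data.

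Depth came from the steps between low values of single-exon genes, of which 97.7% to 98.7% were whole within 0.1 fragment. Fragments per gene assume its longest transcript, cover counting error only and are not independent molecules.

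The member genes and all lists were chosen with earlier results of these data known. All 10 members are named. Of each list, genes past the threshold are named, or otherwise the 2 with the largest change in each comparison at a mean of at least 1 FPKM, and the 5 genes most like Lep. Some genes of the lists are not reported here by name. Promoter windows are RefSeq's (GRCm38.p6), held for 8 of the 10 genes. Python 3.11.15, pandas 2.3.3 and matplotlib 3.10.9 were used for the rest. Alternatives were 2 other pseudocounts, other filters and scalings, all 8 libraries in 1 fit, library type as a covariate, no trend, and each library left out.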

Additional observations from a re-analysis of the deposited data

How the results depend on the processing

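Libraries could not be paired by replicate number because 22 °C and 4 °C share no replicate number and NCD and HFD share only number 6. The fit with library type as a covariate blocked on the satellite split instead, and its calls are given below. Of 338 values recomputed under alternatives, 294 kept direction and side of the threshold, 20 changed sign, 16 newly passed and 8 (all Lep under HFD) no longer passed. The causes were not tested.

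Of the 10 genes, 0 passed in the cold as reported, 1 (Lep) with a filter of 1 FPKM, quantile normalization, median centring, both rescalings, X, Y and mitochondrial genes kept, or all 8 libraries with library type, 2 (Lep and Sfrp5) with library type, and 0 to 2 with a library left out. Without 22 °C replicate 4 or without 22 °C replicate 7 Lep passed in the cold, and Sfrp5 passed without 22 °C replicate 7 or 4 °C replicate 11. Under HFD, 1 passed as reported, and 0 with a pseudocount of 0.1 or 0.01, no filter, quantile normalization, both rescalings, X, Y and mitochondrial genes kept, or no trend (adjusted p of Lep 0.122 to 0.527). Of all genes, 15 and 9 passed with these pseudocounts and 0 under the other settings just named. With library type 2 passed, and with a library left out 1 to 2, where Sfrp5 joined Lep without NCD replicate 8 or HFD replicate 2.

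Of the accompanying genes, 8 passed in the cold, but 0 with no filter or no trend, 14 with median centring, 15 with library type, 16 with all 8 libraries and library type, and 0 to 12 with a library left out (0 without 4 °C replicate 2). Of all genes, 252 (1.44%) passed as reported, 0 with no filter or no trend, 757 (4.33%) with median centring, 859 (4.92%) with library type, 869 (4.97%) with all 8 libraries and library type, and 1 without 4 °C replicate 2. Under HFD 0 passed as reported, 1 with a filter of 1 FPKM, 2 with median centring, 7 with all 8 libraries, 21 with library type, 13 with both, and 4 to 17 with a library left out, where of all genes 12, 24, 45, 75, 744, 439 and 99 to 727 passed.

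In the cold Cav1 turned to −0.39 with quantile normalization, −0.10 with median centring, −0.29 rescaled without mitochondrial genes, rRNA and Ucp1, and −0.28 rescaled to the autosomal sum, and Cfd to −0.14, −0.33 and −0.32 under the last 3. Under HFD Fabp4 turned to −0.15 with median centring. With a library left out, cold values ran from −0.011 to 0.33 for Cav1, −0.47 to 0.71 for Cfd, −0.27 to 0.032 for Bmp3 and −0.46 to 0.34 for Rbp4, and HFD values from −0.26 to 0.67 for Fabp4, −0.52 to 0.42 for Adipoq −0.64 to 0.47 for Nampt, and, without a change of sign, 0.41 to 1.57 for Cav1 (lowest without NCD replicate 8, highest without NCD replicate 6) and −1.15 to −0.21 for Rbp4 (without NCD replicate 8 and NCD replicate 6). The median protein-coding gene at 1 FPKM or more was shifted by 0.22 in the cold and 0.30 under HFD as deposited.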
